A study of Mus musculus with 15 samples.

Results

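The 8 genes described here encode ligands, receptors and readouts of transforming growth factor beta (TGF-beta) signalling and of fibroblast activation: Tgfb1, Tgfb2, Tgfb3, Tgfbr1, Tgfbr2, Ltbp2, Meox1 and Acta2. They were taken by gene symbol from a table of 54532 genes, and each symbol matched 1 gene. The table comes from bulk RNA sequencing of hearts of wild-type C57BL/6 mice, 8 to 10 weeks old at surgery as far as the labels say, that underwent transverse aortic constriction (TAC), a band on the aorta that loads the left ventricle with pressure. After 4 weeks of TAC the survivors were randomised, 15 mice per group, to encenicline (EVP-6124) at 2 mg/kg/day, to donepezil at 5 mg/kg/day, both given in drinking water, or to physiological saline, and the hearts carry the label TAC 8 weeks. Encenicline is an agonist of the alpha7 nicotinic acetylcholine receptor, and donepezil inhibits acetylcholinesterase. The series asks which of these ways of acting on the vagal axis does more in heart failure. Each group has 5 libraries, called here encenicline 1 to 5, donepezil 1 to 5 and saline 1 to 5 after their titles. All 3 groups were banded, so no level below can be set against an unoperated heart. The labels do not state that each library is a different mouse, so the p-values measure the spread between these libraries.

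TGF-beta is secreted in a latent complex that is held in the extracellular matrix and released by integrins and proteases. The active ligand binds the type II receptor, which switches on the type I receptor kinase, and the kinase phosphorylates Smad transcription factors. In the pressure-loaded heart this pathway is known for turning resident fibroblasts into cells that deposit matrix and, in part, make smooth muscle actin.

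The libraries held 14496147 to 17176086 reads assigned to genes, of which 17.4 to 27.0% were mitochondrially encoded. The treatment field of the labels names saline for donepezil 1 and donepezil for encenicline 1, against their titles. The titles were used for the groups, and with the groups of that field 0 genes passed in any comparison (limma, 1323 genes at an unadjusted p under 0.05 for donepezil against saline, 739 for encenicline against saline and 1391 between the drugs). Markers fixed for heart cell types were detected as the tissue label implies: the summed level of 6 cardiomyocyte markers ran from 5737 to 10849 FPKM, and 4 atrial markers summed to at most 2.38 FPKM, with Sln and Bmp10 below 0.5 FPKM in every library. FPKM are fragments scaled by gene length and by a depth per library, so they can be compared between genes. The depth implied by the FPKM was not the number of reads assigned to genes. It was 0.925 times that number in encenicline 1, the lowest, 1.12 times in saline 3 and 1.15 times in donepezil 4, the highest.

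Donepezil 4 stands apart from the other 14 libraries in the genes described here. It had the highest level of 7 of the 8, all but Acta2. Its 8 fibroblast markers summed to 1026 FPKM, against 705 to 871 in the other donepezil libraries, and its 6 macrophage markers to 289 FPKM, against 112 to 151. Of the fibroblast sum, Col1a1 gave 229 FPKM and Col1a2 115, against 13.7 to 20.1 and 7.89 to 11.9 in the other donepezil libraries. Pdgfra, Tcf21, Dcn, Lum and Dpt were also above those libraries, but Gsn, at 400 FPKM, was the lowest of all 15. The cardiomyocyte markers of donepezil 4, at 5970 FPKM, were second lowest of all. Its endothelial and pericyte markers and its mitochondrial share were the lowest. Saline 3 was second highest in 6 of the 8 genes. It was also second in fibroblast markers, at 885 FPKM, and in macrophage markers, at 217 FPKM, and lowest in cardiomyocyte markers, but highest in endothelial markers. The part of these marker differences in the values below was not tested, and the comparisons of the 8 genes that use donepezil 4 are given with and without it. In bulk RNA of heart tissue, more cells of a type and more RNA per cell cannot be told apart.

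**Figure D1:**
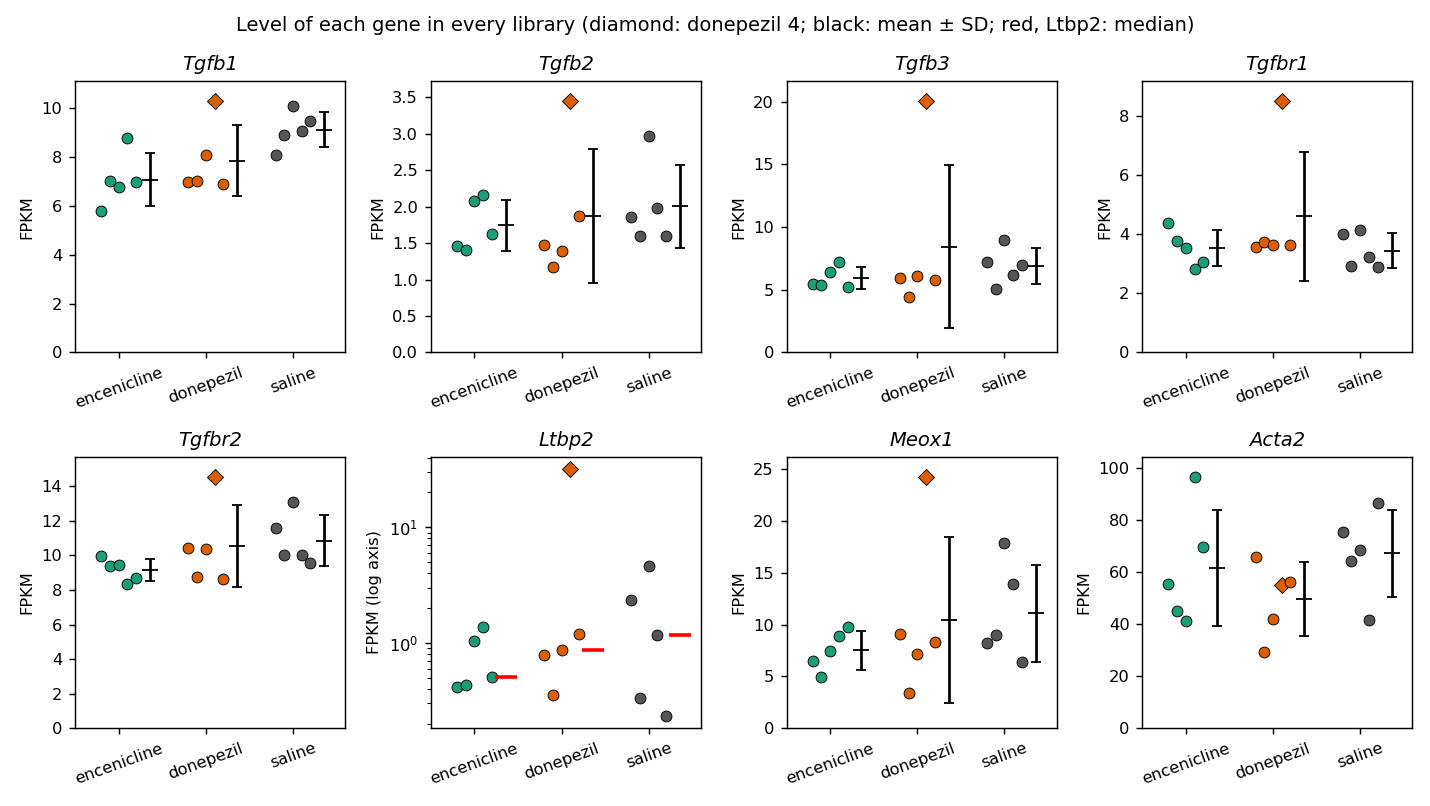
Level in FPKM of the 8 genes in each of the 15 libraries, by group, with the mean and SD in black. Donepezil 4 is the diamond, and the Ltbp2 panel has a log axis with the median in red. Donepezil 4 is the top point in every panel except that of Acta2.

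The sequence just upstream of Tgfb2 and of Ltbp2, which varied together over the libraries as given further on, is shown as a description. Its part in that variation was not tested. Both come from the RefSeq promoter table on build GRCm38.p6, which runs from 250 bases before to 50 bases after the annotated start, and 6 of the 8 genes had an entry there. Capitals mark CAGAC or its reverse complement GTCTG, the short sequence that Smad proteins can bind, and TATAAA, the TATA box. The Tgfb2 sequence is chr1:186705940-186706239 and the Ltbp2 sequence is chr12:84876442-84876741, both printed 5′ to 3′ on the minus strand of the chromosome, the strand of the gene.
Tgfb2: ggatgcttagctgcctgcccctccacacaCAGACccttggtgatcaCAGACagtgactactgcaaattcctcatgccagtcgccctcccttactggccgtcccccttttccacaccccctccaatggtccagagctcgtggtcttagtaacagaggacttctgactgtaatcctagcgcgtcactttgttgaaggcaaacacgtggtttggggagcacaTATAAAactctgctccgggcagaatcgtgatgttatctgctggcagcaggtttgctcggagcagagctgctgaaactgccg
Ltbp2: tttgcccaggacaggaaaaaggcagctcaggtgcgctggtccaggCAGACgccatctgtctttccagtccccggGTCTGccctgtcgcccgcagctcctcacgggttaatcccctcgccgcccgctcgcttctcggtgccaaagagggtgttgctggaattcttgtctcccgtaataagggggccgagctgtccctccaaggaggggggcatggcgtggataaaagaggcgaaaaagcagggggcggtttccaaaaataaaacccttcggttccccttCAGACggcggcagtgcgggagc

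The Tgfb2 sequence held CAGAC in 2 places and TATAAA in 1, and the Ltbp2 sequence held CAGAC or its complement in 3. Among the sequences not shown, those of Tgfbr2 and Acta2 and 1 of Tgfbr1 held CAGAC or its complement in 1 place each. The other Tgfbr1 sequence and that of Tgfb1 held it in 0. Searched on both strands, CAGAC is present in 49.6% and TATAAA in 13.6% of all 32851 promoters of this length, so a match to CAGAC is common. A match is a description of letters and not a binding site.

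The ligand Tgfb1 (chr7, 25687002 to 25705077 on GRCm38, plus strand), made by immune and stromal cells alike, lay lower in both drug groups than in saline, but not past the test. In order of library number it stood at 5.77, 7.02, 6.76, 8.77 and 6.95 FPKM with encenicline, at 6.95, 7.00, 8.07, 10.3 and 6.89 with donepezil and at 8.08, 8.89, 10.1, 9.06 and 9.46 with saline. All 5 encenicline libraries were below the saline median, and encenicline 4 alone among them exceeded any saline library. Among the donepezil libraries, donepezil 4 was above every saline library and the other 4 were below every saline library, with donepezil 3 (8.07) just under saline 1 (8.08). The means were 7.05 ± 1.085 FPKM with encenicline, 7.84 ± 1.44 with donepezil, against 9.11 ± 0.729 with saline (SD, n = 5 each), and 7.23 ± 0.564 over the 4 donepezil libraries without donepezil 4.

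The log2 fold change of Tgfb1, on the log2(FPKM + 0.5) scale, was -0.36 in encenicline against saline (SE 0.11, limma, Benjamini-Hochberg adjusted p = 0.499 over 13396 genes, unadjusted p = 0.00707). It was -0.22 in donepezil against saline (SE 0.11, limma adjusted p = 0.377) and -0.14 in encenicline against donepezil (SE 0.11, limma adjusted p = 0.589). Both comparisons with saline use the same 5 saline libraries. Without donepezil 4 the donepezil value was -0.31 (SE 0.10, limma adjusted p = 0.0970), and Tgfb1 was then the 1 member whose donepezil libraries all lay below all saline libraries, as did 3.58% of the genes tested. With all libraries 0 members did so, beside 1.79% of genes, and 0 members did so for encenicline against saline, beside 0.732%.

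Tgfb3 (chr12, 86056745 to 86079041, minus strand), a ligand made in fibroblasts and other mesenchymal cells, was lower than Tgfb1 in every library but donepezil 4. It stood at 5.47, 5.34, 6.42, 7.22 and 5.22 FPKM with encenicline, at 5.91, 4.42, 6.06, 20.04 and 5.80 with donepezil and at 7.20, 5.05, 8.97, 6.16 and 6.97 with saline. Donepezil 4 was 3.42 times the median of the other donepezil libraries, and the other libraries of the 3 groups overlapped. Tgfb3 had a log2 fold change of -0.18 in encenicline against saline (SE 0.29, limma adjusted p = 0.858). Against saline, donepezil gave 0.08 with donepezil 4 (SE 0.29, limma adjusted p = 0.932) and -0.27 without it (SE 0.14, limma adjusted p = 0.315), so leaving out 1 library turned its sign.

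Tgfb2 (chr1, 186622792 to 186705989, minus strand), the ligand known for its part in heart development, was the lowest of the 3 ligands in every library. It stood at 1.46, 1.40, 2.07, 2.16 and 1.62 FPKM with encenicline, at 1.47, 1.17, 1.39, 3.44 and 1.87 with donepezil and at 1.86, 1.60, 2.97, 1.98 and 1.60 with saline. The groups overlapped, with donepezil 4 the highest and saline 3 second. Its log2 fold change was -0.15 in encenicline against saline (SE 0.20, limma adjusted p = 0.841) and -0.12 in donepezil against saline (SE 0.20, limma adjusted p = 0.841). Without donepezil 4 the donepezil value was -0.33 (SE 0.16, limma adjusted p = 0.275).

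Summed over the 3 ligands, the level was 12.7 to 18.1 FPKM with encenicline, 12.6 to 33.8 with donepezil and 15.5 to 22.0 with saline. Tgfb1 made up 44.3 to 51.0% of that sum with encenicline, 30.4 to 55.6% with donepezil and 45.7 to 57.2% with saline. In donepezil 4 alone Tgfb3 took the larger share, 59.4%. These shares are given as a description, with no test.

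**Figure D2:**
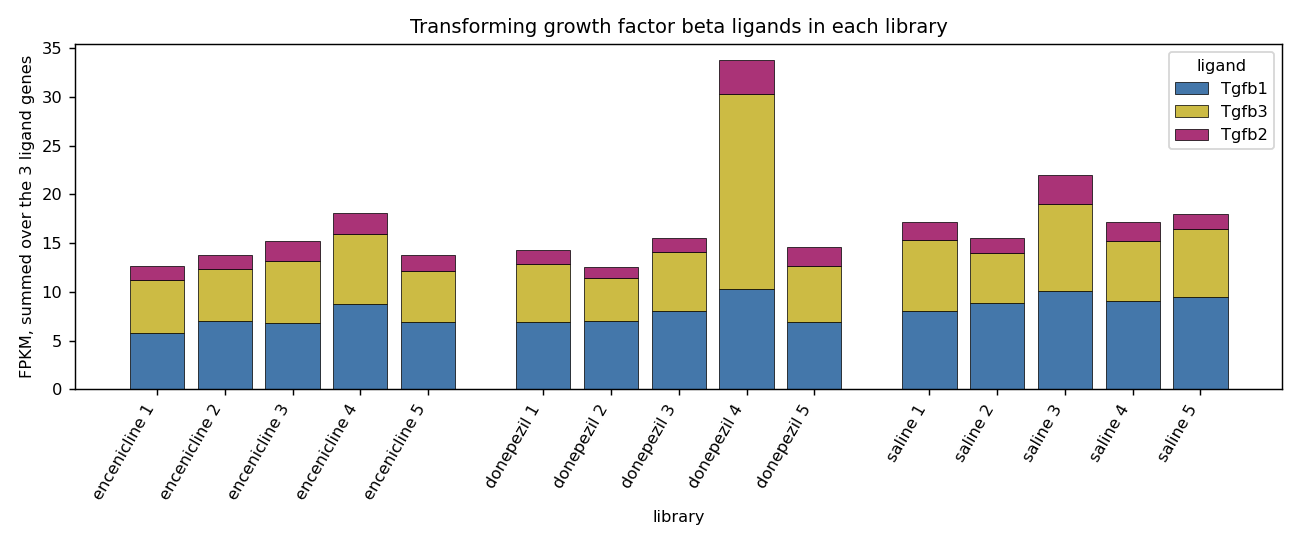
FPKM of the 3 ligand genes stacked for each library, with the groups side by side. The sum is 12.6 to 22.0 FPKM in 14 libraries and 33.8 FPKM in donepezil 4, where Tgfb3 is the larger part.

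Of the receptors, Tgfbr2 (chr9, 116084293 to 116175360, minus strand), the type II receptor that binds ligand first, was the more abundant. It stood at 9.96, 9.40, 9.43, 8.35 and 8.69 FPKM with encenicline, at 10.4, 8.72, 10.4, 14.5 and 8.64 with donepezil and at 11.6, 10.0, 13.1, 10.0 and 9.58 with saline. All 5 encenicline libraries were below the saline median, with encenicline 1 (9.96) above saline 5 (9.58), and the donepezil libraries reached below and above the saline range. Tgfbr2 had a log2 fold change of -0.23 in encenicline against saline (SE 0.12, limma adjusted p = 0.576) and -0.06 in donepezil against saline (SE 0.12, limma adjusted p = 0.883), the second being -0.17 without donepezil 4 (SE 0.10, limma adjusted p = 0.343).

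Tgfbr1 (chr4, 47353222 to 47414931, plus strand), the type I receptor kinase, was at 4.39, 3.78, 3.54, 2.84 and 3.07 FPKM with encenicline, at 3.56, 3.73, 3.64, 8.51 and 3.63 with donepezil and at 4.00, 2.93, 4.14, 3.23 and 2.88 with saline. The other 4 donepezil libraries were within 3.56 to 3.73 FPKM, and donepezil 4 was 2.34 times their median. All 5 donepezil libraries were above the saline median of 3.23 FPKM, inside the saline range except for donepezil 4. Against saline, Tgfbr1 had a log2 fold change of 0.03 with encenicline (SE 0.20, limma adjusted p = 0.968). That value was below 0 when FPKM were scaled to an equal sum per library, with or without mitochondrial genes, and in voom. The median of all genes was then also below 0, at -0.15, -0.08 and -0.10 in that order. Donepezil against saline gave 0.31 (SE 0.20, limma adjusted p = 0.483) and 0.09 without donepezil 4 (SE 0.12, limma adjusted p = 0.754).

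Tgfbr1 as a share of the sum of both receptors was 25.4 to 30.6% with encenicline, 25.4 to 36.9% with donepezil and 22.6 to 25.6% with saline. Apart from donepezil 4, the donepezil libraries reached 29.9%. The saline shares thus lay at the low end, and saline 1 (25.6%) alone among them reached into the other groups' ranges. No test was run on the share.

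Ltbp2 (chr12, 84783212 to 84876532, minus strand) encodes a matrix protein of the latent TGF-beta binding family that, unlike its relatives, does not bind the latent ligand and sits on elastic microfibrils. It varied more than any of the other 7 genes, from 32 reads in saline 5 to 4526 reads in donepezil 4. It stood at 0.419, 0.430, 1.03, 1.38 and 0.511 FPKM with encenicline, at 0.789, 0.352, 0.862, 31.9 and 1.19 with donepezil and at 2.35, 0.333, 4.63, 1.17 and 0.234 with saline. Donepezil 4 was 38.6 times the median of the other donepezil libraries, and saline 3 was 6.17 times that of the other saline libraries. The medians were 0.511 FPKM with encenicline, 0.862 with donepezil and 1.17 with saline, and the ranges overlapped.

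Ltbp2 had a log2 fold change of -0.52 in encenicline against saline (95% interval -2.22 to 1.19, limma adjusted p = 0.858). With donepezil against saline it was 0.49 (95% interval -1.22 to 2.20, limma adjusted p = 0.839), and -0.44 without donepezil 4 (95% interval -1.45 to 0.56, limma adjusted p = 0.665). Between encenicline and donepezil it was -1.01 (95% interval -2.72 to 0.70, limma adjusted p = 0.570) and -0.07 without donepezil 4 (limma adjusted p = 0.966). The exons of Ltbp2 share 764 bases with an antisense gene, D030025P21Rik, that reached at most 0.159 FPKM, and the strand used in counting is not given in the sources used here.

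Meox1 (chr11, 101877510 to 101894374, minus strand) encodes a homeobox transcription factor reported in mice to drive the stress-induced activation of heart fibroblasts. It stood at 6.49, 4.96, 7.43, 8.87 and 9.74 FPKM with encenicline, at 9.07, 3.37, 7.13, 24.2 and 8.31 with donepezil and at 8.18, 9.02, 17.9, 13.9 and 6.36 with saline. Donepezil 4 and then saline 3 and saline 4 were highest, and the other 12 libraries lay between 3.37 and 9.74 FPKM. Its log2 fold change was -0.47 in encenicline against saline (SE 0.38, limma adjusted p = 0.701) and -0.26 in donepezil against saline (SE 0.38, limma adjusted p = 0.818). Without donepezil 4 the donepezil value was -0.62 (SE 0.30, limma adjusted p = 0.283), so that 1 library moved it by more than 1.5 times.

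Acta2 (chr19, 34241090 to 34255336, minus strand) encodes smooth muscle alpha-actin, present in vessel walls and in myofibroblasts, and was the most abundant of the 8 genes in every library. It stood at 55.5, 44.9, 41.3, 96.5 and 69.5 FPKM with encenicline, at 65.7, 29.1, 42.0, 54.9 and 56.3 with donepezil and at 75.2, 64.2, 68.6, 41.5 and 86.6 with saline. All 5 donepezil libraries were below the saline median of 68.6 FPKM, yet the ranges overlapped, with saline 4 below 4 of the donepezil libraries. Donepezil 4, so high in the other genes, was 1.12 times the median of the other donepezil libraries in Acta2. Its log2 fold change was -0.16 in encenicline against saline (SE 0.26, limma adjusted p = 0.865), -0.45 in donepezil against saline (SE 0.26, limma adjusted p = 0.428) and 0.29 in encenicline against donepezil (SE 0.26, limma adjusted p = 0.611). The donepezil value without donepezil 4 was -0.50 (SE 0.28, limma adjusted p = 0.352).

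The drugs were given at different doses, so a difference between them is one between these regimens. Between encenicline and donepezil, Tgfb3 had a log2 fold change of -0.27 (SE 0.29, limma adjusted p = 0.684) and 0.09 without donepezil 4 (limma adjusted p = 0.834). Tgfb2 had -0.02 (limma adjusted p = 0.973) and 0.18 without it (limma adjusted p = 0.683), and Meox1 -0.22 (limma adjusted p = 0.823) and 0.14 without it (limma adjusted p = 0.882). These 3 thus turned sign with 1 library. Tgfbr1 had -0.28 (SE 0.20, limma adjusted p = 0.520) and -0.05 without donepezil 4 (limma adjusted p = 0.891), and Tgfbr2 -0.17 (SE 0.12, limma adjusted p = 0.527) and -0.05 without it (limma adjusted p = 0.858). Tgfb1 had -0.04 without donepezil 4 (limma adjusted p = 0.9003) and Acta2 0.34 (limma adjusted p = 0.653).

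Counted together, 0 of the 8 genes passed in encenicline against saline, a comparison in which 0.00% of the 13396 genes tested passed (limma). At an unadjusted p under 0.05 there was 1, Tgfb1, beside 9.22% of all genes. Donepezil against saline also had 0 of 8 past the test, beside 2.12% of all genes (1.18% higher and 0.941% lower) and 3.05% without donepezil 4, and 0 of 8 were at an unadjusted p under 0.05, beside 16.1%. Encenicline against donepezil had 0 of 8, beside 0.933% of all genes (0.440% higher and 0.493% lower) and 0.724% without donepezil 4, and 0 of 8 were at an unadjusted p under 0.05, beside 15.0%. The count was also 0 in each comparison by limma voom on the recovered reads. A count of 0 does not show that the levels were alike, as the intervals of Ltbp2 show.

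The signs were uneven in encenicline against saline, where 7 of the 8 genes had a log2 fold change below 0, beside 48.8% of all genes, with a median of -0.21 beside 0.00 over all genes. Those 7 were below 0 in every one of the 30 alternatives that tested them, of which the equal sum per library also moved the median of all genes to -0.15 and voom to -0.10. For donepezil against saline 5 of 8 were below 0, beside 50.4% of all genes, and without donepezil 4 there were 7 of 8, beside 49.2%, with medians of -0.09 and -0.32. Between encenicline and donepezil 7 of 8 were below 0, beside 49.2%, and without donepezil 4 there were 4 of 8, beside 48.6%. The 8 genes share libraries, so these are not independent signs. In the same comparison of encenicline with saline, 6 of 6 macrophage markers were below 0 (median log2 fold change -0.22), 6 of 6 cardiomyocyte markers above 0 (median 0.17) and 5 of 5 erythroid markers below 0 (median -1.004, all 5 at an unadjusted p under 0.05), with 0 of these markers past the test. Also below 0 were 6 of 6 endothelial (median -0.11), 5 of 5 mesothelial (-0.42) and 4 of 4 heart failure markers (-0.49), while pericyte markers split 3 and 3. With donepezil against saline 6 of 6 macrophage, 6 of 6 endothelial and 5 of 5 erythroid markers were below 0 (medians -0.12, -0.15 and -0.42), while cardiomyocyte markers split 3 and 3. Without donepezil 4 there were 6 of 6 macrophage (median -0.34), 5 of 6 endothelial (-0.12) and 5 of 5 erythroid markers (-0.36) below 0. The cardiomyocyte markers were then 6 of 6 above 0 (median 0.08). Fibroblast markers were 7 of 8 below 0 without donepezil 4 (median -0.16) and 3 of 8 with it (median 0.06). The part of these markers in the levels of the 8 genes was not tested.

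**Figure D3:**
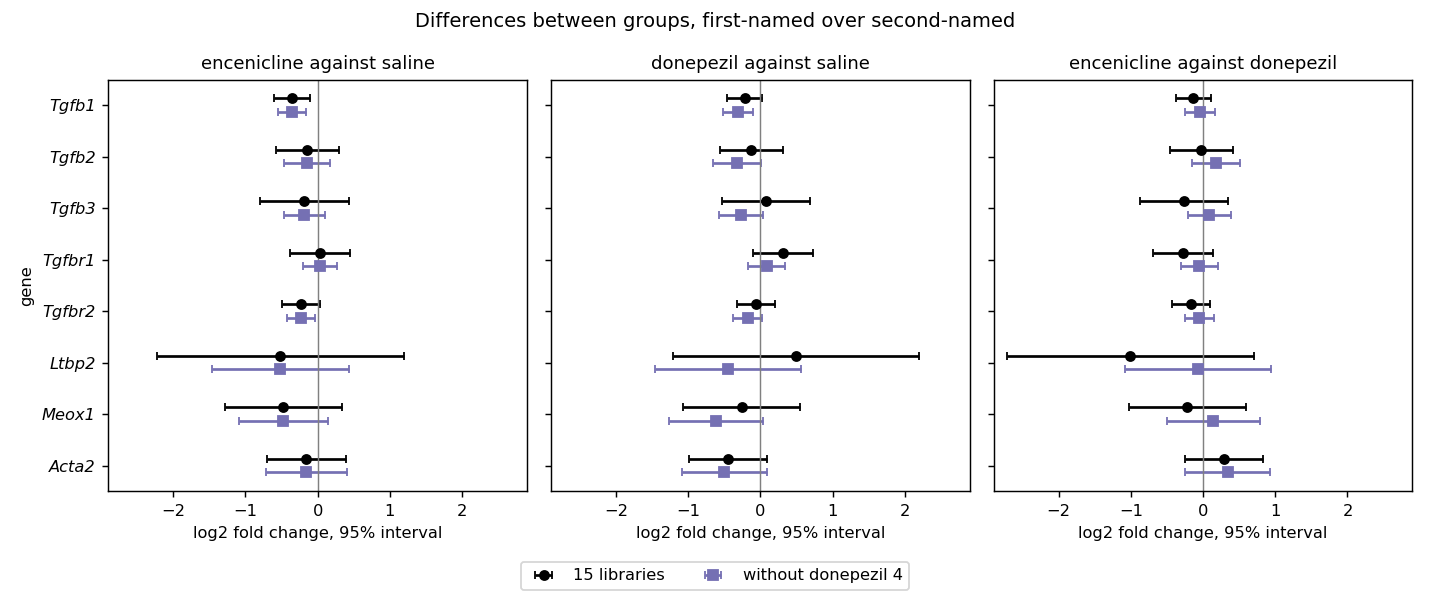
Log2 fold change and 95% interval of the 8 genes in the 3 comparisons, with all 15 libraries (black circles) and without donepezil 4 (purple squares). Ltbp2 has the widest interval, and Tgfb3 and Ltbp2 in donepezil against saline change side of 0 when donepezil 4 is left out.

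Levels of Tgfb2, Tgfb3 and Ltbp2 were correlated over the libraries, as were those of Tgfb2 and Meox1. Over the 28 pairs, Pearson's r of log2(FPKM + 0.5) across the 15 libraries ran from -0.21 to 0.94 with a median of 0.64, and 18 pairs passed (permutation test, two-sided, Benjamini-Hochberg over 28 pairs). By Spearman's rho 4 pairs passed, those of Tgfb2 with Tgfb3, Ltbp2 and Meox1 and of Tgfb3 with Ltbp2. Without donepezil 4 the median r was 0.47 and 5 pairs passed, these 4 and Ltbp2 with Meox1. The libraries of all groups are pooled here, and no sequencing batch is given in the labels.

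The Tgfb2 and Ltbp2 pair had r = 0.88 and rho = 0.76 (permutation p = 3e-05 and 0.00138, adjusted p = 0.00028 and 0.0171). It kept r = 0.67 without donepezil 4 and saline 3, the 2 libraries farthest from the median, and r = 0.94 after centring on the group means. The Tgfb3 and Ltbp2 pair had r = 0.94 and rho = 0.74 (permutation p = 8e-05 and 0.00183, adjusted p = 0.00056 and 0.0171), with r = 0.63 without those 2 libraries. The Tgfb2 and Meox1 pair had r = 0.88 and rho = 0.72 (permutation p = 3e-05 and 0.00351, adjusted p = 0.00028 and 0.0246), with r = 0.68 without them.

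Of the pairs with Tgfbr1, 0 passed without donepezil 4. Its r with Tgfb3 was 0.78 over 15 libraries (rho = 0.15, permutation p = 0.0265 and 0.593, adjusted p = 0.0421 and 0.722) and -0.21 without the 2 farthest libraries, so that relation rests on them. Of the 7 pairs with Acta2, 0 passed, with r from -0.21 to 0.34 and a median of 0.24. Without donepezil 4 their r ran from -0.37 to 0.56 with a median of 0.39, and 0 passed. The smallest p over 15 libraries was that of Acta2 with Tgfb1 (r = 0.34, rho = 0.27, permutation p = 0.211 and 0.327, adjusted p = 0.282 and 0.458, and r = 0.45 without the 2 farthest libraries).

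**Figure D4:**
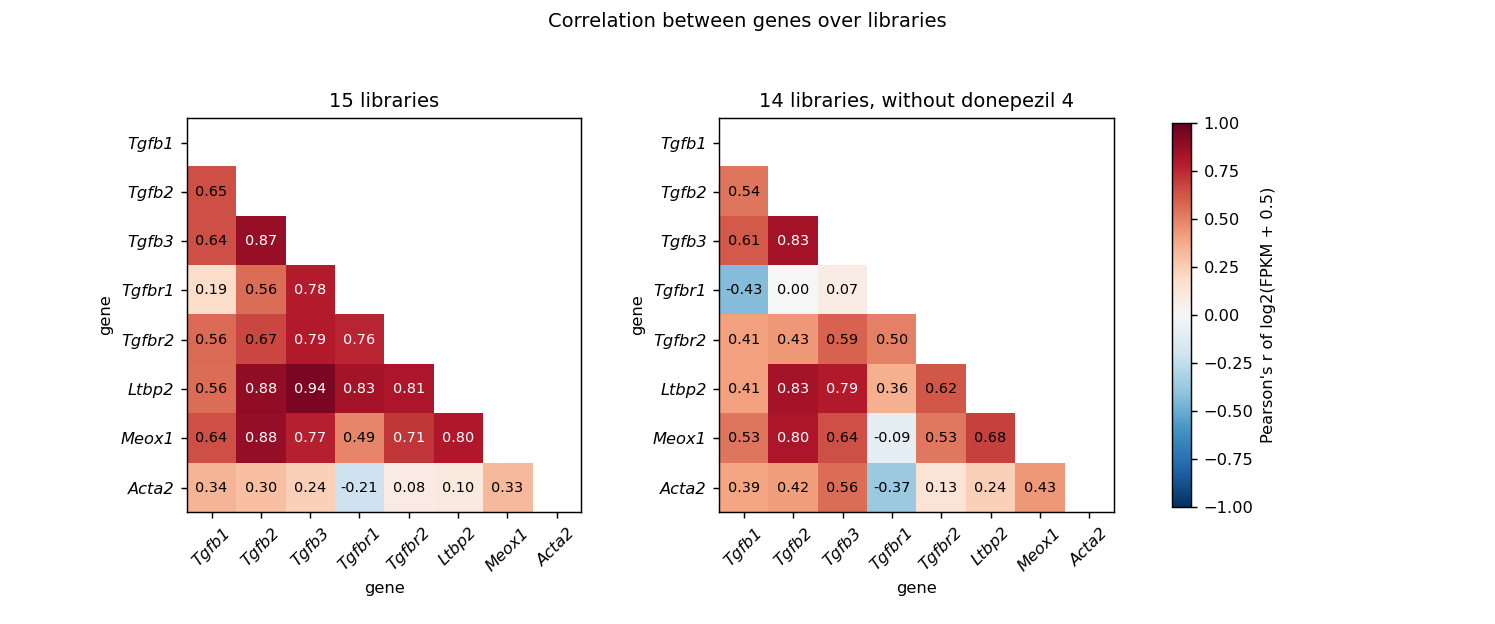
Pearson's r of log2(FPKM + 0.5) for each pair of the 8 genes over 15 libraries (left) and over 14 without donepezil 4 (right), with red above 0 and blue below. Tgfb2, Tgfb3, Ltbp2 and Meox1 have r above 0 with each other in both panels. In the Tgfbr1 row the cells with Tgfb2 and Tgfb3 are paler without donepezil 4, and that with Tgfb1 goes from 0.19 to -0.43. The Acta2 row runs from -0.21 to 0.34 on the left and from -0.37 to 0.56 on the right.

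Nppa, the atrial natriuretic peptide gene that strained ventricles switch on, moved with Ltbp2. Nppa stood at 29.2 to 119 FPKM with encenicline, at 92.5 to 112 with donepezil apart from 857 in donepezil 4, and at 36.2 to 287 with saline, where saline 3 was highest. Its r with Ltbp2 was 0.94 and its rho 0.92 (permutation p = 1e-05 for both, the smallest that 100000 resamples can give, adjusted p = 8e-05 over the 8 genes). Without the 2 farthest libraries r was 0.80, without donepezil 4 it was 0.88, and after centring on the group means it was 0.95. Of the 8 genes, 7 passed with Nppa over 15 libraries and 1, Ltbp2, without donepezil 4. Acta2 had r = -0.00 and rho = 0.12 (permutation p = 0.990 and 0.670, adjusted p the same), and r = -0.06 without the 2 farthest libraries.

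The genes whose levels were most like those of each member were ranked by r among 11647 protein-coding genes, as a description over 15 libraries that share depth and cell makeup. Those most like Ltbp2 were Postn, the matricellular protein of activated fibroblasts (0.99), Thbs4, a thrombospondin of stressed muscle (0.98), and Dkk3, a secreted Wnt-pathway relative (0.98). Without donepezil 4 Postn and Thbs4 were still its nearest, at 0.97 each. Those most like Tgfb2 were Tsku, Fzd1 and Wisp2 (0.96, 0.93 and 0.93), and those most like Tgfb3 were Dkk3, Serpinf1 and Loxl3 (0.97, 0.96 and 0.96). Meox1 was most like Unc93b1, Col6a3 and Kctd17 (0.93, 0.93 and 0.92), and Tgfbr2 was most like App, Nid1 and Edem1 (0.95, 0.93 and 0.93). Tgfbr1 was most like Acbd5, Lox and Sfrp2 (0.91, 0.91 and 0.89), but without donepezil 4 Lox and Sfrp2 had 0.58 and 0.46 and Acbd5 0.92. Tgfb1 was most like Esyt1, Lgals3bp and Slfn2 (0.91, 0.91 and 0.90), and Acta2 like Wdr77, Mfsd11 and the tropomyosin gene Tpm2 (0.88, 0.87 and 0.87). Without donepezil 4 the genes named for members other than Tgfbr1 had r of at least 0.84.

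**Figure D5:**
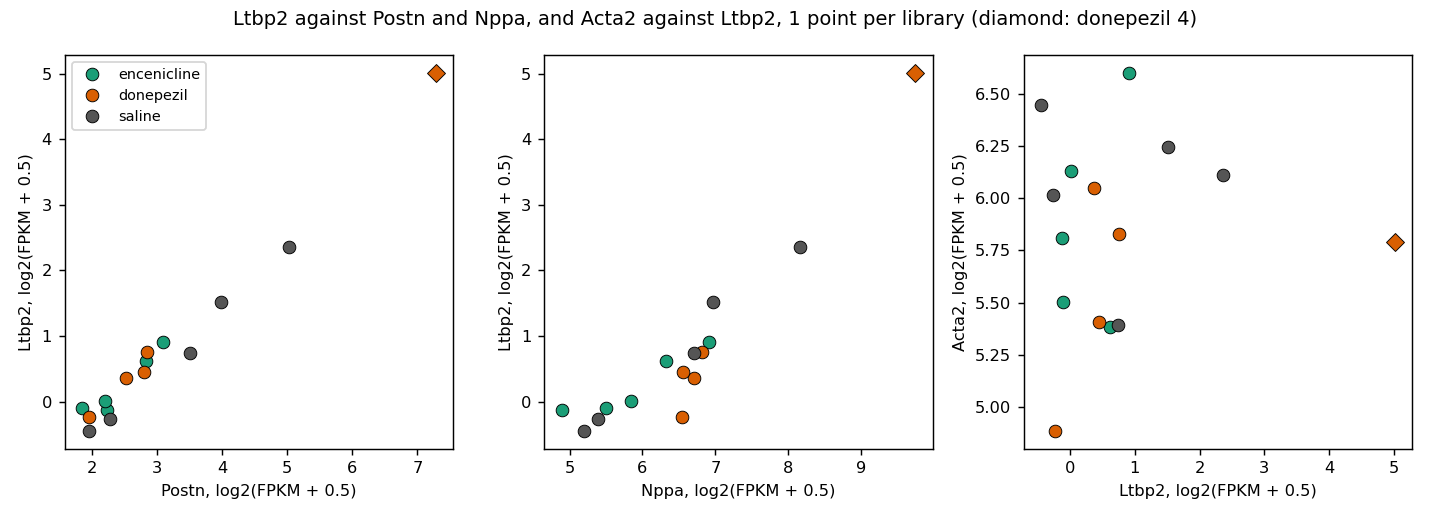
Ltbp2 against Postn (left) and Nppa (middle), and Acta2 against Ltbp2 (right), 1 point per library on the log2(FPKM + 0.5) scale, with donepezil 4 as the diamond. The first 2 panels run along a line over all groups, with r of 0.99 and 0.94, and the third has r of 0.10.

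Around the 8 genes, the control of TGF-beta latency and activation was described by a list of 19 genes, 17 of them tested. With encenicline against saline 0 rose and 0 fell, with 2 at an unadjusted p under 0.05, beside 9.22% of all genes. The median log2 fold change was -0.23, beside 0.00 over all genes. With donepezil against saline 0 rose and 1 fell, beside 1.18% and 0.941% of all genes, with a median of 0.07. Without donepezil 4 there were 2 that fell, Itgb6 and Bmp1, beside 195 of all 13396 genes, and the median was -0.09. The gene that fell with all libraries was Itgb6, a subunit of the integrin alphavbeta6 that releases active TGF-beta in epithelia. It stood at 1.81, 1.64, 1.82, 1.81 and 1.72 FPKM with encenicline, at 0.526, 0.358, 0.408, 0.608 and 0.989 with donepezil and at 0.765, 1.31, 1.14, 1.85 and 1.61 with saline. Encenicline and donepezil did not overlap, while donepezil 5 reached above saline 1.

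Itgb6 was lower with donepezil than with saline (log2 fold change -0.76, SE 0.16, limma adjusted p = 0.0253), a call that ended in 10 of 29 alternatives, 6 of them the loss of a single library (donepezil 1, 2 or 3, or saline 2, 4 or 5). It was higher with encenicline than with donepezil (log2 fold change 1.10, SE 0.16, limma adjusted p = 0.00516), a call that ended in 1 of 29, the grouping by the treatment field. Itgb3, a subunit of the integrin alphavbeta3, was at 0.421 to 0.531 FPKM with encenicline and 0.704 to 1.30 with donepezil, a log2 fold change of -0.61 (SE 0.13, limma adjusted p = 0.0420). That call ended in 17 of 29 alternatives, among them the loss of any of 10 libraries, donepezil 4 included (limma adjusted p = 0.0845). Both integrin genes are low, and neither was tested under the filter of 2 FPKM in 5 libraries. Itgb6 went down to 0.358 FPKM with donepezil, below the 0.5 FPKM of the filter used. Furin, the protease that cleaves the TGF-beta precursor, averaged 21.2 ± 3.18 FPKM in donepezil hearts and 14.7 ± 2.42 FPKM in saline hearts (SD, n = 5 each), without overlap, as in 2.11% of genes, and not past the test (log2 0.52, SE 0.14, limma adjusted p = 0.0675, and 0.56 without donepezil 4).

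Among receptors and co-receptors beside Tgfbr1 and Tgfbr2, 11 of 13 genes were tested. Between encenicline and donepezil 1 passed, beside 0.933% of all genes. It was Bambi, which encodes a membrane protein that resembles a type I receptor but lacks its kinase and dampens signalling. Bambi averaged 3.96 ± 0.393 FPKM with encenicline, 2.26 ± 0.428 with donepezil, against 2.97 ± 0.527 with saline (SD, n = 5 each). Bambi was higher by a log2 fold change of 0.70 in encenicline against donepezil (SE 0.12, limma adjusted p = 0.0108), with no overlap between those groups, as in 2.00% of genes, and 0.71 without donepezil 4. The call ended in 3 of 30 alternatives and in none that left out a single library. Against saline, Bambi had 0.37 with encenicline (SE 0.12, limma adjusted p = 0.499) and -0.33 with donepezil (SE 0.12, limma adjusted p = 0.167), both with the same saline libraries. Eng, an endothelial co-receptor, averaged 71.0 ± 12.1 FPKM in donepezil hearts and 95.8 ± 11.7 FPKM in saline hearts (SD, n = 5 each), a log2 fold change of -0.44 (SE 0.13, limma adjusted p = 0.0908) and of -0.47 without donepezil 4. Those groups did not overlap, as in 1.79% of genes. Beside it, the endothelial markers summed to 183 to 230 FPKM with donepezil and 212 to 268 with saline. Of the 6 markers 2, Emcn and Kdr, passed the test as lower, beside 0.941% of all genes, Emcn also without donepezil 4. The part of these cells in the level of Eng was not tested.

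Of the Smad proteins and their regulators 18 of 19 were tested, and 0 rose and 0 fell in each comparison (limma). At an unadjusted p under 0.05 there were 2 for encenicline and 5 for donepezil, each against saline, and 4 between the drugs, beside 9.22%, 16.1% and 15.0% of all genes, with medians of -0.06, 0.02 and -0.03. Without donepezil 4 the donepezil count was 8 (3 higher and 5 lower), beside 2593 of all 13396 genes, with a median of -0.01, and 0 passed.

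Of the genes known to respond to TGF-beta in other cells, 18 of 22 were tested. With encenicline against saline 0 rose and 0 fell, and 1 was at an unadjusted p under 0.05, beside 9.22% of all genes. Of the 18, 16 were below 0, with a median of -0.28. Without donepezil 4 in the fit 7 were at an unadjusted p under 0.05, all lower, beside 1645 of all 13396 genes, and 0 passed. With donepezil against saline Cdkn1a rose and 0 fell. It encodes the cell cycle inhibitor p21, which many other stresses also induce.

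Cdkn1a stood at 19.6, 50.003, 15.9, 17.0 and 31.3 FPKM with encenicline, at 70.3, 96.7, 33.1, 29.8 and 60.2 with donepezil and at 22.2, 8.65, 20.4, 9.95 and 27.2 with saline. Donepezil 4 was the lowest donepezil library, still above every saline library. Against saline, the log2 fold change of Cdkn1a with donepezil was 1.68 (SE 0.40, limma adjusted p = 0.0405) and 1.88 without donepezil 4 (limma adjusted p = 0.0221). The call ended in 13 of 30 alternatives, 8 of them the loss of a single library (donepezil 1, 2 or 5, encenicline 1 or 5, or saline 2, 3 or 4).

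The list's median in donepezil against saline was 0.16 with donepezil 4 and -0.24 without it. Between encenicline and donepezil it was -0.85 with donepezil 4 and -0.17 without it. At an unadjusted p under 0.05 in donepezil against saline, 4 of the list were higher and 0 lower, beside 16.1% of all genes. Without donepezil 4 these counts were 3 higher and 6 lower, beside 2593 of all 13396 genes.

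Of the genes of activated fibroblasts 13 of 16 were tested, and 0 rose and 0 fell in any comparison, with 0 at an unadjusted p under 0.05 in encenicline against saline and 2 in each of the others. With encenicline against saline all 13 were below 0, beside 48.8% of all genes, with a median of -0.50, and the median lay between -0.68 and -0.31 over the 30 alternatives. Without donepezil 4 in the fit 3 of the 13 were at an unadjusted p under 0.05, all lower, beside 1645 of all 13396 genes, and 0 passed. Alongside, 6 of 8 fibroblast markers were below 0 (median -0.14), with the macrophage, cardiomyocyte and erythroid markers as given above, and their part was not tested. Postn averaged 5.21 ± 2.02 FPKM in encenicline hearts and 13.2 ± 11.6 FPKM in saline hearts (SD, n = 5 each), a log2 fold change of -0.91 (SE 0.82, limma adjusted p = 0.731). With donepezil against saline 12 of the 13 were above 0, with a median of 0.27, and without donepezil 4 there were 3, with a median of -0.35. Lox, an enzyme that crosslinks collagen, stood at 1.44 to 2.28 FPKM with encenicline, at 2.55 to 5.44 in 4 donepezil libraries and 39.3 in donepezil 4, and at 1.32 to 4.07 with saline. Its log2 fold change in donepezil against saline was 1.33 (SE 0.52, limma adjusted p = 0.211) and 0.68 without donepezil 4 (limma adjusted p = 0.154). Ctgf, a matricellular growth factor, had 1.03 in that comparison (SE 0.43, limma adjusted p = 0.243) and 0.59 without donepezil 4 (limma adjusted p = 0.336).

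Of 14 contractile and adhesion genes, which share smooth muscle and myofibroblasts with Acta2, 13 were tested, and 0 rose and 0 fell in any comparison, with 2 at an unadjusted p under 0.05 in each. Of all genes 9.22% were at that level for encenicline and 16.1% for donepezil, each against saline, and 15.0% between the drugs. Without donepezil 4 the donepezil count was 4, all lower, beside 2593 of all 13396 genes. Tpm2, among the genes most like Acta2, averaged 8.81 ± 1.67 FPKM with encenicline, 8.88 ± 1.94 with donepezil, against 11.4 ± 1.86 with saline (SD, n = 5 each), a log2 fold change of -0.36 against saline for both drugs (SE 0.16, limma adjusted p = 0.537 for encenicline and 0.291 for donepezil, the second being -0.38 without donepezil 4). The smooth muscle marker Myh11 averaged 8.85 ± 0.823, 8.69 ± 1.91 and 9.66 ± 3.34 FPKM in encenicline, donepezil and saline hearts in that order (SD, n = 5 each). The summed smooth muscle markers overlapped between groups, at 38.3 to 46.1 FPKM with encenicline, 39.3 to 47.3 with donepezil and 38.9 to 64.8 with saline, and 7 of 7 were detected.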

How the data were processed

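RNA sequencing values of 15 libraries from mouse hearts were used, 5 per group, grouped by title. Where a mean is given for the hearts of a group, n counts libraries. The authors deposited FPKM per gene. The submitters' processing notes name the build GRCm38 and the tools HISAT, DESeq (1.8.3) and featureCounts (1.5.0-p3), whose roles are not given in the sources used here. Multiplied by gene length and by 1 constant per library, 100% of the deposited FPKM gave whole reads (within 0.05), and 14496147 to 17176086 reads per library were recovered. Of the table's symbols 27 had become dates and were restored from identifiers. There were 0 sample columns without a sample.

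A gene was tested where 5 or more of the 15 libraries reached 0.5 FPKM, which left 13396 genes, and all 8 described genes passed that filter. limma 3.58.1 (R 4.3.3), with a mean-dependent prior variance and no block, was fitted to log2(FPKM + 0.5) of all 15 libraries, tested two-sided and adjusted by Benjamini-Hochberg over all genes tested, at a threshold of 0.05. A fold change on this scale understates that of low genes. Correlations were tested with 100000 permutations (Python 3.11.15, numpy 2.4.6, scipy 1.17.1, pandas 2.3.3). The procedure was tested on simulated data.

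The 8 genes and the lists were chosen with earlier results of these data known. The genes named are the 8, up to 3 genes per list with the smallest p in either comparison with saline, list genes that passed, the 3 genes most like each of the 8, cell type markers and Nppa; not all are printed. The result of 1 list gene that passed is not reported here. Alternatives were other pseudocounts, filters and scalings, fits of only the groups compared, a replicate block, robust variances with library weights, limma voom run on the recovered reads (0 and 279 genes called for encenicline and donepezil against saline, 154 between the drugs), the treatment field, each library left out, and, chosen after seeing the data, a constant prior variance.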

Additional observations from a re-analysis of the deposited data

Results flagged for a closer look

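Within-group extremes were looked for with Dixon's ratio, the gap between the highest or lowest library and its neighbour divided by the group's range, in the 24 groups of 5 libraries formed by 8 genes and 3 treatments. A ratio above 0.71 was found in 5 of the 24. For independent values from a normal distribution about 5% of groups exceed it. The 8 genes share their libraries, so the 24 groups are not independent and their count cannot be set against that 5%. In 4 of the 5 the library was donepezil 4, the highest of its group. The ratios were 0.973 for Ltbp2, 0.966 for Tgfbr1, 0.895 for Tgfb3 and 0.727 for Meox1. The other was saline 3, the highest of its group for Tgfb2, with a ratio of 0.722. The cause was not tested.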

How the results depend on the processing

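None of the 8 genes passed in any of 30 alternatives. Of 714 fold changes 687 kept their sign. The smallest adjusted p was 0.0921 (limma, Benjamini-Hochberg), for Tgfb1 in donepezil against saline with library weights and robust variances. Except where a cause is named, the cause was not tested.

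The genes called in donepezil against saline, 284 in the fit reported, numbered 119 with no filter on low values (more genes tested), 158 with FPKM rescaled to an equal sum (TPM), 63 with only the 2 groups compared (fewer libraries), 750 with library weights and robust variances, 82 without donepezil 1 and encenicline 1 and 0 with the groups of the treatment field. Those in encenicline against donepezil, 125 in the fit reported, numbered 46, 56, 116, 363, 27 and 0 under the same alternatives. Leaving out single libraries gave 105 to 409 genes in donepezil against saline (105 without donepezil 1, 148 without donepezil 2, 144 without donepezil 3, 132 without saline 2 and 138 without saline 4), 48 to 177 in encenicline against donepezil (51 without donepezil 1, 72 without donepezil 2, 48 without encenicline 2, 67 without encenicline 4 and 57 without encenicline 5) and 0 to 1 in encenicline against saline, the 1 without donepezil 4. With TPM the 158 genes split into 53 higher and 105 lower, against 158 and 126 in the fit reported, and the 56 into 18 and 38, against 59 and 66. Without mitochondrial genes the splits were 97 and 117, and 34 and 61. In voom they were 106 and 173, and 59 and 95. The median of all genes with TPM was -0.15 for encenicline and -0.08 for donepezil, each against saline, and -0.07 between the drugs, and in voom -0.10, -0.06 and -0.04, so member fold changes there are read against that shift.

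The signs that turned are given here. Without donepezil 4, in donepezil against saline, Tgfb3 was at -0.27 and Ltbp2 at -0.44, and in encenicline against donepezil Tgfb2 was at 0.18, Tgfb3 at 0.089 and Meox1 at 0.14. The correlation of Tgfb1 with Tgfbr1 was then -0.43 and that of Tgfbr1 with Meox1 -0.091. With library weights, Tgfb3 was at -0.080 and Ltbp2 at -0.14 in donepezil against saline, and Tgfb2 at 0.085 and Meox1 at 0.00892 in encenicline against donepezil. Tgfbr1 in encenicline against saline was at -0.051 without mitochondrial genes and with the treatment field, -0.12 with TPM, -0.0772 in voom and -0.042 without donepezil 1 and encenicline 1. Its values without single libraries ran from -0.042 to 0.10. Tgfb2 in encenicline against donepezil was at 0.00654 after quantile normalization and 0.026 with the treatment field. Its values without single libraries ran from -0.13 to 0.18, and in donepezil against saline from -0.33 to 0.00084. In donepezil against saline, without single libraries, Tgfbr2 ran from -0.17 to 0.0095, Meox1 from -0.62 without donepezil 4 to 0.051 without donepezil 2, Tgfb3 from -0.27 to 0.24 and Ltbp2 from -0.44 to 0.89. In encenicline against donepezil Tgfb3 ran from -0.43 to 0.089 and Meox1 from -0.52 to 0.14.

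Libraries with the same replicate number did not vary together (correlations of their deviations from the group means from -0.09 to 0.20), so the numbers were not taken as pairs. A fit with the replicate number as a block called 298 genes in donepezil against saline, 0 in encenicline against saline and 114 in encenicline against donepezil, and 0 of the 8 genes. Tgfb2 and Ltbp2 rest on the fewest reads, down to 101 and 32 per library.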

Other observations

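Of 18 other ligands and antagonists of the TGF-beta superfamily 10 were tested, and 0 passed in any comparison (limma), with 2 at an unadjusted p under 0.05 in donepezil against saline, 0 in encenicline against saline and 1 in encenicline against donepezil. The shares of all genes at that level were 16.1%, 9.22% and 15.0% in the same order. Inhbb, the subunit of activin B, averaged 1.39 ± 0.428 FPKM with encenicline, 2.40 ± 0.584 with donepezil, against 1.29 ± 0.381 with saline (SD, n = 5 each). All 5 donepezil libraries were above the saline median (log2 0.70, SE 0.18, limma adjusted p = 0.0606, and 0.68 without donepezil 4). Bmp6, a bone morphogenetic protein, averaged 24.05 ± 2.48 FPKM in donepezil hearts and 18.5 ± 3.40 FPKM in saline hearts (SD, n = 5 each; log2 0.38, SE 0.15, limma adjusted p = 0.201, and 0.43 without donepezil 4).

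Bmp1, a protease that matures collagen and releases latent TGF-beta, fell in donepezil against saline once donepezil 4 was left out (log2 -0.43, limma adjusted p = 0.0205), and had -0.14 with it (SE 0.23, limma adjusted p = 0.839). It averaged 4.34 ± 0.437 FPKM in encenicline hearts and 5.78 ± 0.692 FPKM in saline hearts (SD, n = 5 each), without overlap, as in 0.732% of genes, not past the test (log2 -0.37, SE 0.23, limma adjusted p = 0.619). Of 16 transcription factors of fibroblast state, all tested, 0 passed in any comparison (limma), with 2, 0 and 2 at an unadjusted p under 0.05 in donepezil against saline, encenicline against saline and encenicline against donepezil, beside 16.1%, 9.22% and 15.0% of all genes. Snai2, a repressor known from epithelial to mesenchymal transition, had the smallest p of them in donepezil against saline, with 1.56 ± 0.222 FPKM in donepezil hearts and 2.28 ± 0.589 FPKM in saline hearts (SD, n = 5 each; log2 -0.42, SE 0.14, limma adjusted p = 0.141, and -0.44 without donepezil 4).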
